A study of Salmo salar with 48 samples.

Results

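Adding moderate hypoxia to warming was examined 3 days after juvenile Atlantic salmon (Salmo salar) had reached 20 °C, as DNA methylation in the liver. The comparison holds 16 of the 48 fish of the series, chosen by the treatment and time in their titles. Warm hypoxic fish (8 livers) were taken to 70% air saturation over 1 week, held there for 2 weeks, and then warmed at that saturation from 12 to 20 °C by 1 °C per week. Warm normoxic fish (8 livers) had the same ramp at 100% air saturation. Both groups came from an aquaculture stock (St. John River strain), and no genetic or other treatment was named for either. Control fish of the same time, kept at 12 °C and 100% air saturation (8 livers), are given as a background level.

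Each group came from its own tanks, with 4 fish per tank, so that oxygen level and tank pair cannot be told apart. Warm hypoxic fish were in tanks T1, with 4 males, and T6, with 1 male and 3 females. Warm normoxic fish were in tanks T2, with 1 male and 3 females, and T5, with 3 males and 1 female. The hypoxic fish had also spent the additional weeks of oxygen decrease and acclimation before the ramp.

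In vertebrates, methyl groups on the cytosines of CpG dinucleotides are kept through cell division by maintenance methyltransferases and can be removed by way of TET enzymes. TET enzymes use molecular oxygen as a substrate, which is one reason why low oxygen is studied together with methylation. The liver carries out much of the metabolic response of a fish to warmth and low oxygen. In bisulfite sequencing an unmethylated cytosine is read as T and a methylated one as C, so a level here means the share of reads, in percent, that keep the C. The liver samples were whole tissue, so a change within cells and a change in the mix of cells cannot be told apart.

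The reads came from amplicons in 7 regions, named here by their chromosome. Region ssa04 (35 Mb), at 35435825 to 35436217 of chromosome 4, has 18 CpGs, and ssa04 (45 Mb), at 44947109 to 44947524 of the same chromosome, has 15. On chromosome 9, the 8 CpGs of ssa09 lie between 121687029 and 121687311. On chromosome 14, the 14 CpGs of ssa14 lie between 33502562 and 33502977. The 16 CpGs of ssa03 lie between 13688232 and 13688647 of chromosome 3, and the 23 of ssa16 between 37941696 and 37942102 of chromosome 16. The last amplicon, ssa15 on chromosome 15, holds 13 between 46698401 and 46698820. Positions follow the reference sequences of the deposited files, whose build is not named in them. Gene annotation was not used here.

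The depth of the groups overlapped. Warm hypoxic fish had 2580524 to 4340189 calls at these CpGs, and warm normoxic fish had 2632797 to 4194806. At ssa04 (35 Mb) a CpG had 65762 reads in the median hypoxic and 73546 in the median normoxic fish. At ssa03, the shallowest region tested, these were 702.5 reads for the hypoxic and 389.5 for the normoxic fish. Every CpG of the 6 tested regions had at least 263 reads in all 16 fish. Reads are PCR copies, so intervals and limits based on them cover counting error only, and the errors below are the spread between fish.

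With males and females together, no region and no single CpG passed the threshold between warm hypoxic and warm normoxic fish. The threshold was an adjusted p of 0.05, with a two-sided exact permutation test over the 16 fish and Benjamini-Hochberg adjustment. The largest gap in percentage points was at ssa04 (35 Mb), which was lower in warm hypoxic fish, and it fell within the spread of the fish. Of the 94 CpGs tested, 0 passed (0% called), also in limma and in a coverage-weighted test. The smallest adjusted p of the exact permutation test was 0.721. At 5 CpGs (5.32% of those tested) the unadjusted p was under 0.05, with 4 of them lower in warm hypoxic fish (4.26%) and 1 higher (1.06%). By chance 4.7 CpGs (5%) would be expected, so this count is near the chance share. Most CpGs named below were picked by their small p. Their intervals are not adjusted for the number of CpGs, and the picking itself favours groups that lie apart. At 0 of the 94 CpGs (0%) were the ranges of the 2 groups separate. The mean was lower in warm hypoxic fish at 55 CpGs, or 58.5% of those tested.

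**Figure D1:**
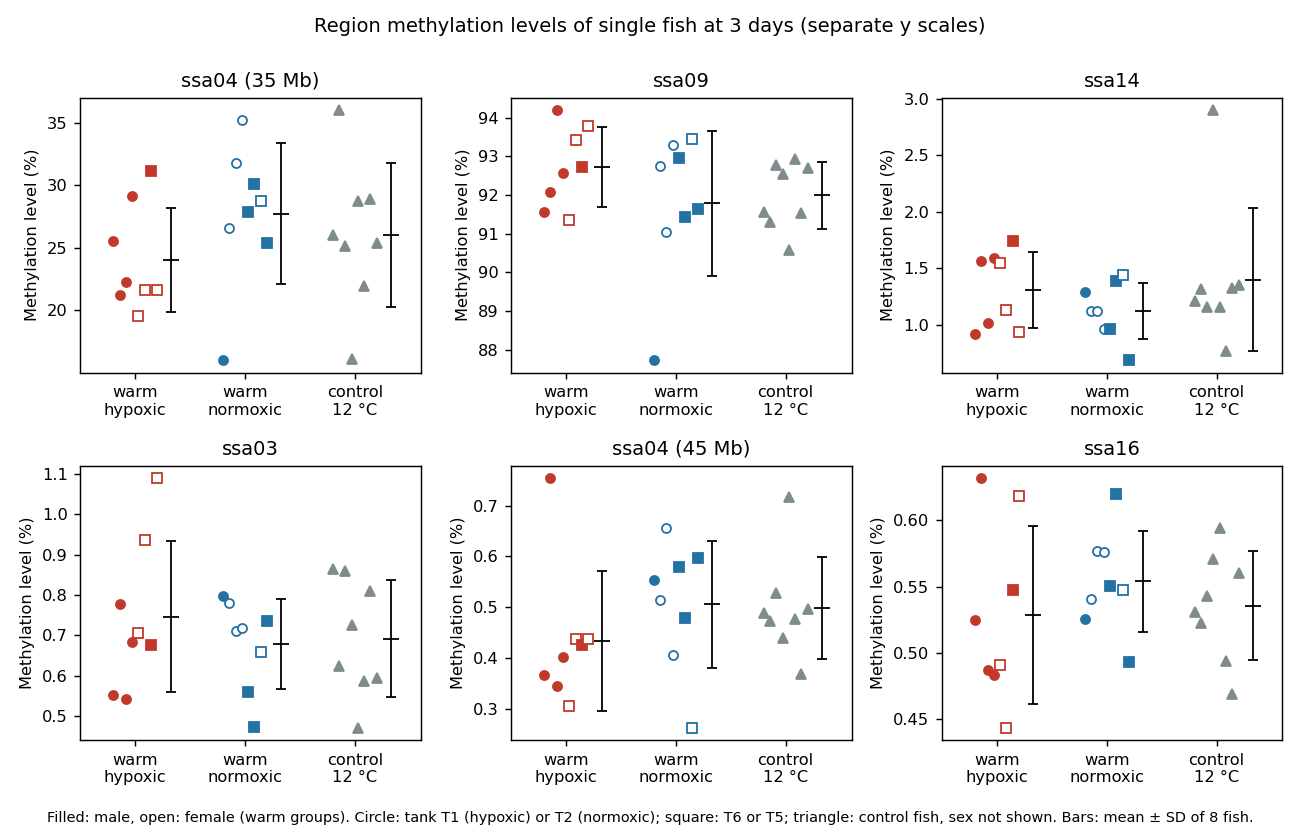
Methylation level (%) of each fish at the 6 tested regions, as the unweighted mean over the region's CpGs, for warm hypoxic, warm normoxic and control fish of 3 days, each panel with its own scale. Bars give the mean ± SD of 8 fish, and the hypoxic and normoxic points overlap in each panel, with fish 77 lowest of the normoxic fish at ssa04 (35 Mb) and ssa09.

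The methylated fraction at ssa04 (35 Mb) was intermediate. Warm hypoxic fish had region levels of 19.5% at the lowest, 21.9% at the median and 31.1% at the highest. Warm normoxic fish had 16.0%, 28.3% and 35.2%. Most hypoxic fish were thus low and most normoxic fish high, with 6 of 8 hypoxic fish below the normoxic median, but the ranges overlapped. Hypoxic fish 76 and 95 lay among the higher normoxic fish, and normoxic fish 77 was the lowest of all 16. The means were 23.99% ± 4.175 in warm hypoxic fish and 27.7% ± 5.65 in the warm normoxic ones (SD of 8 fish). The difference was -3.73 points (95% interval, -8.915 to 1.64), with an exact permutation p of 0.154 and an adjusted p of 0.418 over 6 regions. Control fish of 3 days had a mean between these, at 26.0% ± 5.75 (SD, n = 8), and ranged from 16.1% to 36.0%.

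All 18 CpGs of ssa04 (35 Mb) had a lower mean in warm hypoxic fish, with differences from -5.92 to -0.294 points and a median of -4.30. These CpGs lie on the same amplicon and vary together from fish to fish, so they are not separate observations. Among hypoxic fish, 74, 75, 94 and 96 were each below the median of the 16 fish at 17 of 18 CpGs, and fish 93 at all 18. Hypoxic fish 95 was below that median at 0 CpGs and fish 76 at 2. Among normoxic fish, fish 77 was below it at all 18 CpGs, whereas fish 80 and 90 were below it at 0 and fish 79 at 1. Fish 77 was the lowest normoxic fish at 16 CpGs, and fish 80 the highest at 15. Several fish of each group were thus high or low along nearly the whole amplicon. The median SD between fish at a CpG was 5.46 points in hypoxic and 6.28 in normoxic fish, against a median counting SD of 0.146 points in hypoxic and 0.154 in normoxic fish.

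The profile along the amplicon was steep, with CpGs in nearly the same order in both groups. CpG means ran from 1.96% to 59.7% in warm hypoxic fish and from 2.51% to 64.7% in the warm normoxic ones. Across the 18 CpGs, which share their reads, the 2 groups' means had a Spearman correlation of 0.994. CpG 35435854 had 7.34% in hypoxic and 10.1% in normoxic fish. At 35435856, only 2 bp further, hypoxic fish had 19.1% and normoxic fish 24.99%, and the second CpG was higher than the first in all 16 fish. The levels at 35435928 and 35435935, 7 bp apart, were 53.4% and 16.8% in hypoxic and 57.4% and 21.4% in normoxic fish, with the second lower in all 16.

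**Figure D2:**
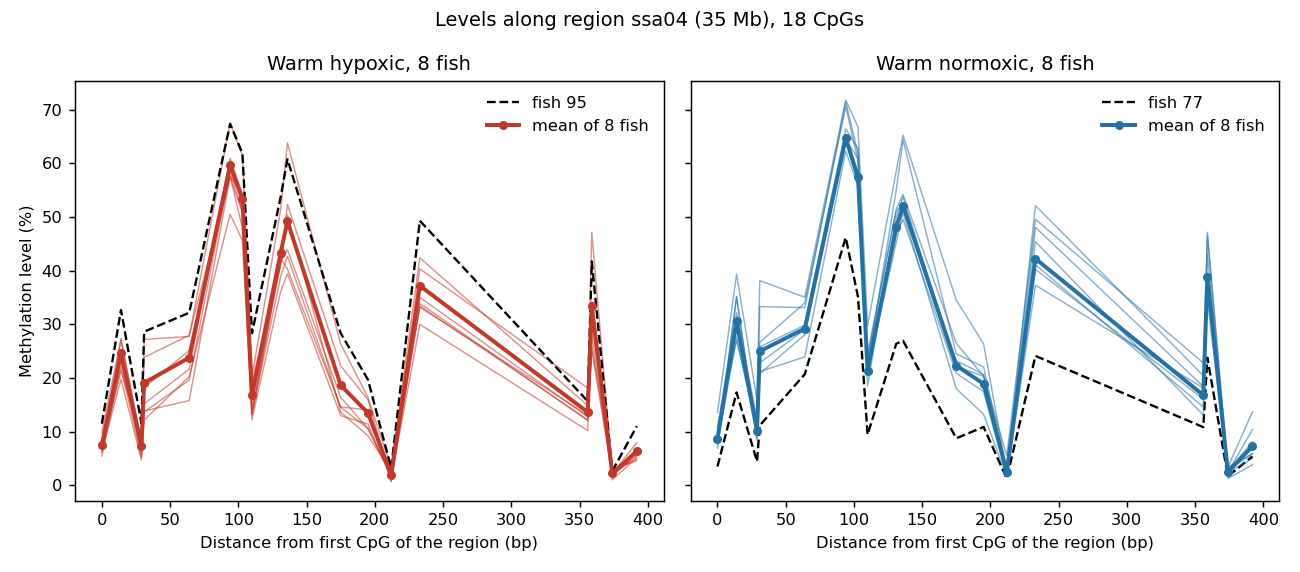
Methylation level (%) against distance from the first CpG (bp) along region ssa04 (35 Mb), with a thin line per fish, a thick line for the mean of 8 fish, and fish 95 (hypoxic) and 77 (normoxic) dashed. The peaks and troughs fall at the same CpGs in both panels, and fish 77 runs below the other normoxic fish along most of the region.

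Of the named CpGs, 4 lay in this region. At 35436020 warm hypoxic fish had 9.25% at the lowest, 12.7% at the median and 19.7% at the highest, and warm normoxic fish had 10.9%, 20.3% and 26.4%. All 8 hypoxic fish were below the normoxic median, and 5 of 8 normoxic fish were above every hypoxic fish. The means were 13.5% ± 3.63 in hypoxic and 18.9% ± 4.95 in normoxic fish (SD of 8 fish), and 15.7% ± 4.70 in control fish. The difference was -5.44 points (95% interval, -10.1 to -0.752), which is -28.7% of the normoxic level (exact permutation p = 0.0274, adjusted p = 0.721).

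The other 3 CpGs had intervals that reached past 0. At 35435839 warm hypoxic fish averaged 24.6% ± 4.19 and the warm normoxic ones 30.5% ± 6.75 (SD of 8 fish), a difference of -5.92 points (95% interval, -11.8 to 0.123), with an exact permutation p of 0.0538 and an adjusted p of 0.721. It was the largest difference in points of the 94 CpGs. At 35435889 the hypoxic mean was 23.8% ± 5.39 and the normoxic mean 29.2% ± 4.99, a difference of -5.43 points (SE 2.596, exact permutation p = 0.0559, adjusted p = 0.721). At 35435854 the hypoxic mean was 7.34% ± 2.26 and the normoxic mean 10.1% ± 3.27, a difference of -2.75 points (SE 1.40, exact permutation p = 0.0695, adjusted p = 0.721). At each of the 3, 7 of 8 hypoxic fish lay below the normoxic median.

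Of the 16 fish left out in turn, fish 77 gave the largest ssa04 (35 Mb) difference and the smallest p. Fish 77 had 16.0% at this region, near control fish 84 at 16.1%, and Dixon's limit, used below, did not flag it here. The region difference was -3.73 points over all 16 fish. Without fish 77 it was -5.40 points, at an exact permutation p of 0.0190 and an adjusted p of 0.114. The number of CpGs with an unadjusted p under 0.05 was then 15 (16.0% of 94), of which 12 were in this region and lower in warm hypoxic fish, and the smallest adjusted p was 0.215. The number was 9 without hypoxic fish 95, 3 without normoxic fish 78 and 3 without normoxic fish 89. Each is a count of the 94 CpGs, of which 4.7 (5%) would be expected by chance. Leaving out any single fish other than 77 gave region differences between -4.75 and -2.65 points. The tank means were 24.5% in T1 and 23.5% in T6 for hypoxic fish, and 27.4% in T2 and 28.02% in T5 for normoxic fish (n = 4 fish each). Both hypoxic tanks were below both normoxic tanks. With tank means as the unit, limma gave an adjusted p of 0.0872 for this region. This compares 2 tanks with 2 and takes the spread from the tank means of all 6 groups. Each tank enters at both times as if independent.

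**Figure D3:**
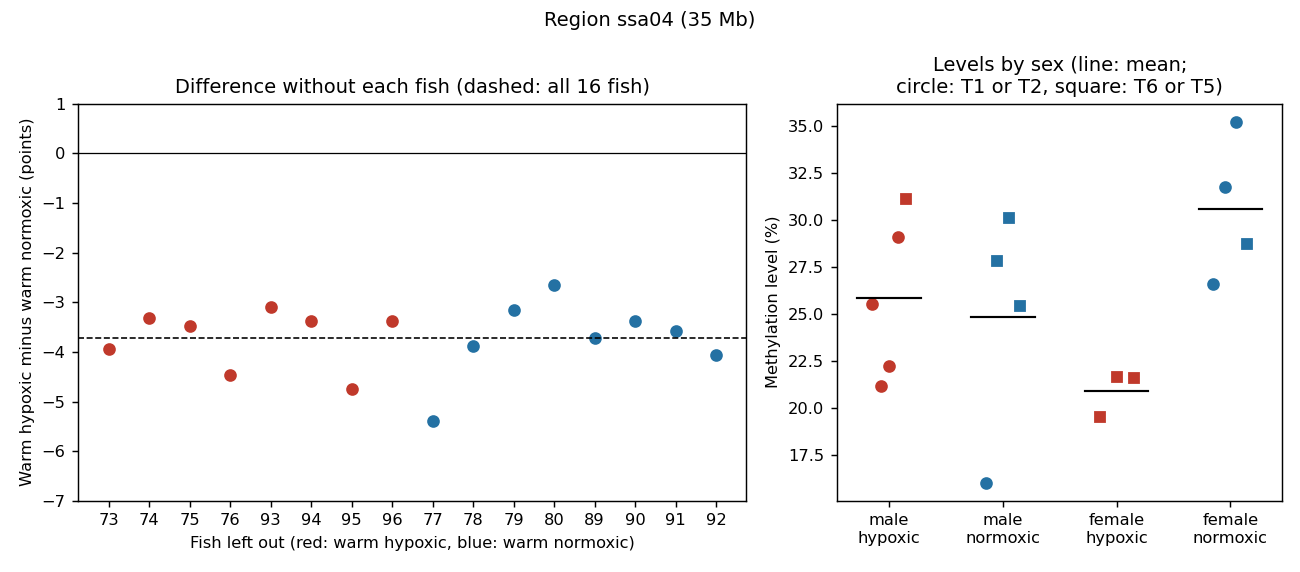
Left, the warm hypoxic minus warm normoxic difference at ssa04 (35 Mb) in percentage points after leaving out each fish, with the value of all 16 fish (-3.73) dashed. Right, region levels (%) of the fish by sex and treatment, with lines at the means and squares for tanks T6 and T5. All 16 values on the left are below 0, and the female groups on the right do not overlap.

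Split by sex, the groups at this region overlapped in males and not in females. The 3 warm hypoxic females had 19.5% to 21.6%, and the 4 warm normoxic females had 26.6% to 35.2%, with no overlap. Their means differed by -9.68 points (exact permutation p = 0.0286, the smallest that 3 against 4 fish allow, adjusted p = 0.343 over 12 tests of 6 regions in each sex). At that smallest p, this test could not pass over 12 tests on its own, without other small p-values among them. In limma, which takes the spread from all 48 fish, the difference in females was -0.87 on the M-value scale, the log2 ratio of methylated to unmethylated calls (95% interval, -1.48 to -0.25). This limma test within each sex was added after the data were seen. The difference in females passed the threshold when adjusted over the 6 regions in females (limma adjusted p = 0.0415). When adjusted over both sexes it did not pass (limma adjusted p = 0.0830 over 12 tests). Leaving out fish 77, a male, cannot change the difference in females, which stayed at -0.87. Only the estimated spread changed (limma adjusted p = 0.0258 over the 6 regions in females, with no value adjusted over both sexes given). The 5 warm hypoxic males had 21.2% to 31.1%, and the 4 warm normoxic males had 16.0% to 30.1%, a difference of 0.995 points (exact permutation p = 0.786). In limma the difference in males was 0.08 on the M-value scale, and -0.19 without fish 77, which is a male (limma adjusted p = 0.764 and 0.594 over the 6 regions in males). The contrast between the sexes, chosen after the levels were seen, was 0.95 in males minus females on the M-value scale. It did not pass in limma (adjusted p = 0.147 over the regions), and it was 0.67 without fish 77. Of the 94 CpGs, 0 passed in this contrast (0%), and 17 had an unadjusted p under 0.05 (18.1%), 9 of them at ssa04 (35 Mb). Without fish 77, 8 of the 94 CpGs had an unadjusted p under 0.05, and 1 of these was at ssa04 (35 Mb). All 3 hypoxic females came from tank T6, and the 1 male of that tank, fish 95, had the highest level of the hypoxic fish. The hypoxic females thus stand for 1 tank, and tank and oxygen level cannot be told apart in females. The contribution of tank to this pattern was not tested.

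Region ssa09 was highly methylated, and its mean was slightly higher in warm hypoxic fish. They had 91.3% at the lowest, 92.6% at the median and 94.2% at the highest. Warm normoxic fish had 87.7%, 92.2% and 93.4%. Apart from fish 77 the ranges were close, since the next normoxic fish had 91.05%. The means were 92.7% ± 1.03 in hypoxic and 91.8% ± 1.87 in normoxic fish (SD of 8 fish), and 92.0% ± 0.859 in controls. The difference was 0.926 points (95% interval, -0.576 to 2.56), with an exact permutation p of 0.254 and an adjusted p of 0.418. It came to 0.347 points without fish 77, at an exact permutation p of 0.508.

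All 8 CpGs of ssa09 had a higher mean in warm hypoxic fish, and the differences ran from 0.00455 to 2.50 points. These CpGs lie on the same amplicon and are not separate observations, and fish 77 was the lowest normoxic fish at 7 of them. The largest difference was at 121687145, which also had the lowest level of the region. Its level was 86.6% ± 2.42 in hypoxic and 84.1% ± 4.48 in normoxic fish (SD of 8 fish, exact permutation p = 0.178, adjusted p = 0.780). There fish 77 had 73.6% and the next normoxic fish 83.8%. Without fish 77 the difference of 2.50 points was 0.991 points. The CpG only 3 bp further, 121687148, had 90.7% in hypoxic and 88.8% in normoxic fish, and it was higher than its neighbour in all 16 fish. The order of CpG levels was almost shared, with a Spearman correlation of 0.976 across the 8 CpGs.

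Region ssa14 was low and graded, highest at its first CpG. The warm hypoxic fish had region levels of 0.920% at the lowest, 1.34% at the median and 1.74% at the highest, and warm normoxic fish had 0.688%, 1.12% and 1.44%. Of the hypoxic fish, 4 were above every normoxic fish, but the lower ones lay among the normoxic fish. The means were 1.31% ± 0.335 in hypoxic and 1.12% ± 0.250 in normoxic fish (SD of 8 fish), and 1.40% ± 0.634 in controls. The difference was 0.184 points (95% interval, -0.134 to 0.503), with an exact permutation p of 0.232 and an adjusted p of 0.418.

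Within ssa14, 8 CpGs had a higher and 6 a lower mean in warm hypoxic fish, and the higher ones included the first 4. The smallest p of all 94 CpGs belonged to 33502632. Hypoxic fish had 0.257% at the lowest, 1.28% at the median and 1.897% at the highest there, and normoxic fish had 0.0964%, 0.459% and 1.36%. Hypoxic fish were mostly high, with 3 above every normoxic fish and 1 below the normoxic median, fish 96. The means were 1.26% ± 0.522 in hypoxic and 0.537% ± 0.428 in normoxic fish (SD of 8 fish), a difference of 0.726 points (95% interval, 0.209 to 1.23), with an exact permutation p of 0.0115 and an adjusted p of 0.721. Control fish had 1.07% ± 0.600.

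At the first CpG of ssa14, 33502562, the level was 5.15% ± 2.11 in warm hypoxic fish and 3.76% ± 1.91 in the warm normoxic ones (SD of 8 fish). It was the largest difference of the region at 1.39 points (95% interval, -0.781 to 3.55), with an exact permutation p of 0.190 and an adjusted p of 0.780. The opposite direction occurred at 33502773. Its level was 0.634% ± 0.246 in hypoxic and 1.05% ± 0.518 in normoxic fish, a difference of -0.417 points (95% interval, -0.8525 to -0.00392), with an exact permutation p of 0.0472 and an adjusted p of 0.721. At this CpG 3 normoxic fish were above every hypoxic fish and 2 hypoxic fish below every normoxic fish.

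Region ssa04 (45 Mb) was nearly unmethylated. Warm hypoxic fish had 0.305% at the lowest, 0.414% at the median and 0.754% at the highest, and warm normoxic fish had 0.263%, 0.534% and 0.655%. The hypoxic fish were low except fish 74, with 7 of 8 below the normoxic median. The means were 0.434% ± 0.138 in hypoxic and 0.506% ± 0.124 in normoxic fish (SD of 8 fish), and 0.499% ± 0.0998 in controls. The difference was -0.0714 points (95% interval, -0.203 to 0.0703), with an exact permutation p of 0.295 and an adjusted p of 0.418. It came to -0.117 points without fish 74, at an exact permutation p of 0.0390 and an adjusted p of 0.234.

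At CpG 44947115 of ssa04 (45 Mb) the normoxic fish lay in separate ranges. There fish 77, 78, 89 and 92 had 0.879% to 1.12%, and the other 4 normoxic fish had 0.178% to 0.318%. All 8 hypoxic fish had 0.165% to 0.417%, so that 4 normoxic fish were above every hypoxic fish. These levels rest on at least 6110 reads per fish, which are PCR copies. Unconverted cytosines count as methylated at levels this low too, and the conversion rate is not known. The means were 0.260% ± 0.0990 in hypoxic and 0.630% ± 0.412 in normoxic fish (SD of 8 fish), and 0.724% ± 0.603 in controls. The difference was -0.370 points (95% interval, -0.7245 to -0.0134), with an exact permutation p of 0.0420 and an adjusted p of 0.721.

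Region ssa16 was also nearly unmethylated. Levels in warm hypoxic fish were 0.444% at the lowest, 0.508% at the median and 0.632% at the highest. Those in warm normoxic fish were 0.493%, 0.550% and 0.620%. The lower 4 hypoxic fish were below every normoxic fish and the highest, fish 74, was above all of them. The means were 0.529% ± 0.0671 in hypoxic and 0.554% ± 0.0380 in normoxic fish (SD of 8 fish), and 0.536% ± 0.0409 in controls, a difference of -0.0254 points (95% interval, -0.0837 to 0.0333), with an exact permutation p of 0.356 and an adjusted p of 0.418.

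Its second CpG, 37941700, had the second smallest p of the 94. Warm hypoxic fish had 0.307% at the lowest, 0.466% at the median and 1.09% at the highest, and warm normoxic fish had 0.449%, 0.949% and 1.19%. Of the hypoxic fish, 4 were below every normoxic fish, and 7 were below the normoxic median. The means were 0.572% ± 0.269 in hypoxic and 0.907% ± 0.225 in normoxic fish (SD of 8 fish), and 0.647% ± 0.311 in controls. The difference was -0.334 points (95% interval, -0.595 to -0.0624), with an exact permutation p of 0.0207 and an adjusted p of 0.721. The fewest reads at this CpG were 563, in a normoxic fish.

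Region ssa03 had the fewest reads of the tested regions. Its direction was reversed with coverage weighting, in limma on the M-value scale, and without tank T5 or T6. Warm hypoxic fish had 0.542% at the lowest, 0.695% at the median and 1.09% at the highest, and warm normoxic fish had 0.473%, 0.715% and 0.798%. Hypoxic fish 94 and 96, both females of tank T6, were above every normoxic fish. The means were 0.746% ± 0.187 in hypoxic and 0.680% ± 0.112 in normoxic fish (SD of 8 fish), and 0.692% ± 0.145 in controls, a difference of 0.0663 points (95% interval, -0.0980 to 0.235), with an exact permutation p of 0.418. The coverage-weighted difference was -0.104 points, in which the hypoxic fish 75 and 95 and the normoxic fish 92 weigh most. These had 14777, 5608 and 3091 reads per CpG, against 271 to 1480 in the others. Leaving out fish 96 gave 0.0171 points, at an exact permutation p of 0.801.

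The largest difference at ssa03 was at its first CpG, 13688232, where 1 fish stood out. Fish 96 had 4.80%, and the other 7 warm hypoxic fish had 0.214% to 1.66%. Warm normoxic fish had 0.249% to 1.58%. The means were 1.29% ± 1.51 in hypoxic and 0.654% ± 0.450 in normoxic fish (SD of 8 fish), a difference of 0.639 points (exact permutation p = 0.303, adjusted p = 0.794). Without fish 96 it was 0.138 points. At ssa03, 10 of 128 values of hypoxic fish and 21 of 128 of normoxic fish had 0 methylated calls. For such a value, counting alone allows a level of up to 0.554% to 1.11% in hypoxic and 0.593% to 1.05% in normoxic fish, 3 calls of the total. The SD between fish at a CpG was 1.47 times the counting SD in hypoxic and 1.21 times in normoxic fish.

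**Figure D4:**
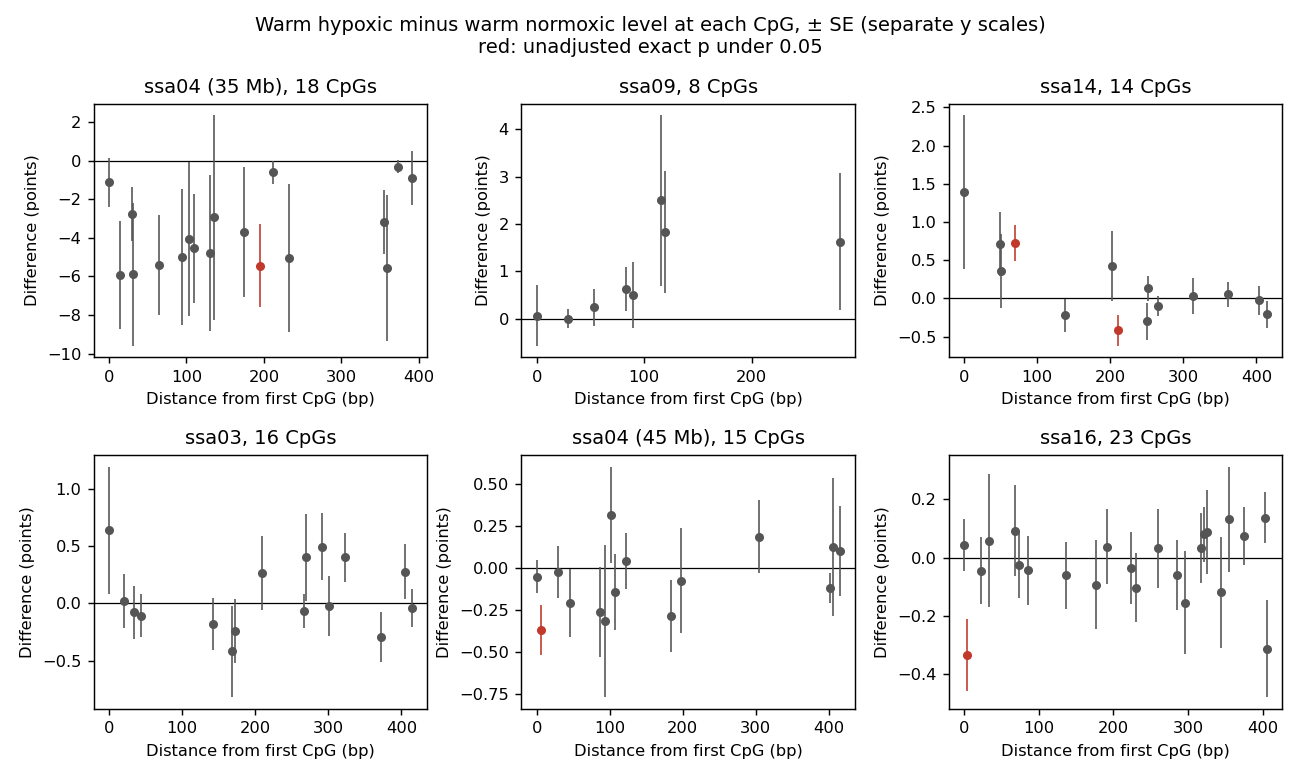
Difference between the mean levels of warm hypoxic and warm normoxic fish (percentage points, ± SE, n = 8 each) at each of the 94 CpGs, against distance from the first CpG of the region (bp), each panel with its own scale. Red marks the 5 CpGs with an unadjusted exact p under 0.05. Differences are below 0 at all 18 CpGs of ssa04 (35 Mb), above 0 at all 8 of ssa09, and on both sides of 0 in the other 4 regions.

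The same pair of treatments after 4 weeks at 20 °C, with 8 other fish each, asks whether the difference changed with time. At 4 weeks there were 2 males and 6 females among warm hypoxic fish, and 5 males and 3 females among warm normoxic fish. At 3 days these were 5 males and 3 females, and 4 males and 4 females. The sex mix thus changed along with time, and contrasts without sex as a covariate do not take this into account. At ssa04 (35 Mb) the fish of 4 weeks had 26.7% ± 3.12 in warm hypoxic fish and 27.8% ± 3.77 in the warm normoxic ones (SD of 8 fish). The difference was thus -3.73 points at 3 days and -1.18 at 4 weeks. At ssa09 it was 0.926 points at 3 days and -0.608 at 4 weeks. In limma over all 6 groups, with the difference at 4 weeks minus that at 3 days on the M-value scale, the change at ssa09 was -0.30 (adjusted p = 0.462) and that at ssa04 (35 Mb) 0.24 (adjusted p = 0.7805). In this test 0 of the 6 regions and 0 of the 94 CpGs (0%) passed, and 3 CpGs (3.19%) had an unadjusted p under 0.05.

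**Figure D5:**
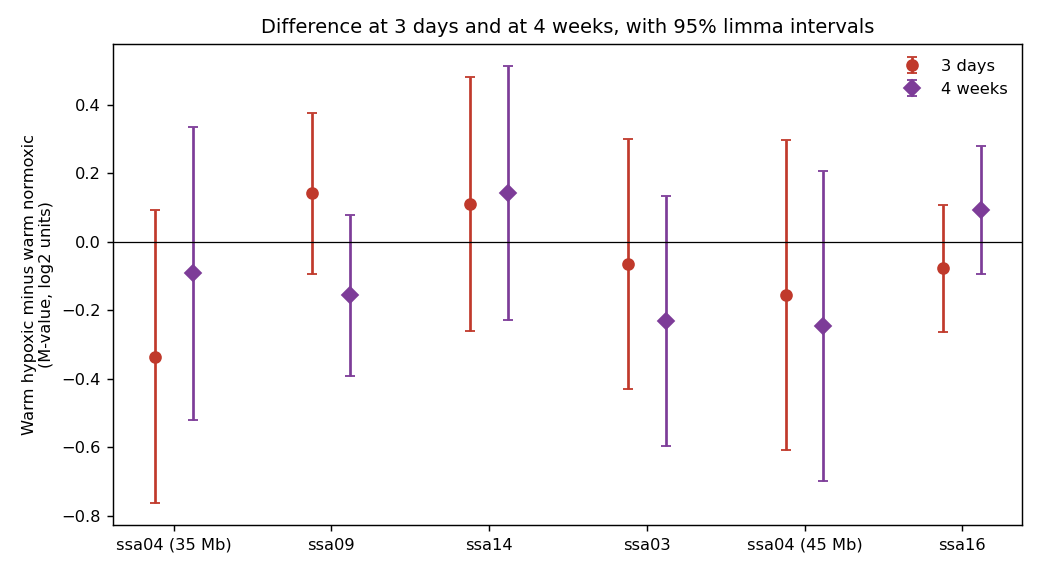
Warm hypoxic minus warm normoxic difference of the region means on the M-value scale (log2 units) at 3 days and at 4 weeks, with 95% intervals from limma over all 6 groups (48 fish). All 12 intervals include 0, and the points lie on opposite sides of 0 at ssa09 and ssa16.

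The 3 CpGs with the smallest p in this test included 2 of those named above. At 44947115 of ssa04 (45 Mb) the difference had the opposite sign at 4 weeks. Warm hypoxic fish of 4 weeks had 0.175% at the lowest, 0.569% at the median and 2.40% at the highest, and warm normoxic fish of 4 weeks had 0.156%, 0.229% and 0.244%. The difference was -0.370 points at 3 days and 0.543 at 4 weeks, a change of 2.32 on the M-value scale (limma adjusted p = 0.263). With sex as a covariate this CpG passed, with a change of 2.79 (limma adjusted p = 0.0169), and over the alternatives the adjusted p ran from 0.0169 to 0.311. At levels this low a small shift in points is a large one on the M-value scale, and the conversion rate is not known. At 13688501 of ssa03 the difference was 0.403 points at 3 days and -0.274 at 4 weeks (limma adjusted p = 0.841). At 37941700 of ssa16 it was -0.334 and 0.0639 points (limma adjusted p = 0.841).

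Region ssa15 was too shallow for a test. Of the warm hypoxic fish 5 had 30 or more reads at all 13 CpGs, and of the warm normoxic fish 3 did. Over these CpGs the hypoxic fish 75, with a median of 5923 reads per CpG, had 1.36% methylated calls (Wilson 95% interval 1.28% to 1.45%), and fish 95, with 524 reads, had 2.16% (1.84% to 2.54%). The other 3 hypoxic fish had 1.53% to 2.22%. The 3 normoxic fish had 0.927% to 1.84%, with at most 84 reads per CpG. The interval of hypoxic fish 95 lay above that of normoxic fish 91, 0.504% to 1.70%, and overlapped those of normoxic fish 78, 0.671% to 2.26%, and 90, 1.00% to 3.36%. That of hypoxic fish 75 overlapped all 3. These intervals treat the calls of the 13 CpGs as independent, although the CpGs share their reads. They may thus be too narrow even for counting error in single fish. The groups were not compared.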

How the data were processed

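DNA methylation was measured by bisulfite amplicon sequencing of liver DNA on an Illumina MiSeq, per the labels' protocols. Bismark 0.20.0, Bowtie2, Trim Galore 0.4.4 and MultiQC 1.9 were used, per the submitters' processing notes. The sources used here do not give their settings, duplicate handling, conversion rate or genome build. Unconverted cytosines count as methylated. The deposited files give, per the file headers, whole-number counts of methylated and unmethylated calls per CpG, without normalization, for 1 fish each.

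The level of a CpG is its methylated calls as a percentage of all its calls. Regions are runs of CpGs called in all 48 fish with gaps under 1000 bp. The 94 CpGs with 30 or more reads in all 16 fish were tested, and a region level is the unweighted mean over its CpGs. Differences between group means, with fish weighted equally, were tested by all 12870 splits of the fish (two-sided, smallest possible p 0.000155) and adjusted by Benjamini-Hochberg over CpGs or regions. A 95% interval spans every shift between groups left unrejected by it. Time and sex contrasts used M-values, log2 of (methylated + 1) / (unmethylated + 1), of the 48 fish in limma 3.58.1 (R 4.3.3). Python 3.11.15 did the rest. The exact test and limma for the 3-day difference at single CpGs were checked on simulated counts, drawn independently for each CpG. Only shifts of 3 SD between fish were tried, so the check does not cover smaller ones. The region, time and sex tests were not checked in this way.

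The labels call the fish biological replicates. The closest 2 fish of a group had a chi-square between their counts of 43.8 per CpG. Because tanks are nested in treatments, p-values measure the spread between fish and not between tanks, except in limma on tank means or with tank as a block. Those rest on 2 tanks per treatment.

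All regions are named, with the 8 CpGs of smallest p and the CpG of the largest difference in each region, 11 in all, and for the times the 3 with the smallest p. The comparison, its members and this rule were chosen with earlier results of these data known. Alternatives were read minimums of 10 and 100, 30 reads in 6 or more fish per group, coverage weighting, limma with and without tank or sex, permutation within sex, and leaving out each tank and fish. The sex contrast, the limma differences within each sex, leaving out fish 74 and 77 together, and tank means for the time contrast were added after the data were seen.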

Additional observations from a re-analysis of the deposited data

Results flagged for a closer look

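Among 34 sets of 8 fish behind the reported region and CpG levels, 4 held a fish whose distance from the next exceeded Dixon's 95% limit. For independent, normally distributed values, chance flags about 1 in 20 sets. The sets here share fish and CpGs, and the share over all CpGs, given last, was higher. The 4 of 34 are thus not judged against that rate. The region level of warm hypoxic fish 74 at ssa04 (45 Mb) was 0.754%, and the other 7 had 0.305% to 0.438%. Warm normoxic fish 77 had 87.7% over region ssa09, where the others had 91.1% to 93.4%. At CpG 121687145 of ssa09 the same fish had 73.6% (73.55%), and the others had 83.8% to 88.0%. Warm hypoxic fish 96 had 4.80% at 13688232 of ssa03, where the others had 0.214% to 1.66%. Over all 94 CpGs, 35 of 188 sets (18.6%) held such a fish.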

How the results depend on the processing

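No paired analysis was possible because each fish number occurs once. Read minimums of 10 and 100, and 30 reads in 6 or more fish per group, left the 3-day differences as they were, since the same CpGs entered. Of the 6 region differences at 3 days, 5 kept their direction and stayed short of the threshold under every alternative except the tests within each sex. Within females, ssa04 (35 Mb) passed in limma when adjusted over that sex alone and not over both sexes. Its direction was reversed in males (0.995 points, or 0.08 on the M-value scale), but not without fish 77 (-0.19 on that scale). At ssa14 the difference in females was -0.18 on the M-value scale against 0.0414 points. Outside the tests within each sex the exception was ssa03, whose difference was 0.0663 points. It was -0.104 when coverage-weighted, -0.0406 without tank T6 and -0.00652 without tank T5. Without tank T6 the hypoxic fish were the 4 males of tank T1, so no hypoxic female was left. In limma on the M-value scale the ssa03 difference was -0.0657, or -0.0497 with sex as a covariate. It was also -0.0657 with tank as a block and on tank means. At its CpG 13688232 the difference was -0.0939 points without tank T6. The cause was not tested, beyond the weights of fish given above. Leaving out each fish gave 0.0171 to 0.0954 points at ssa03, -5.40 to -2.65 at ssa04 (35 Mb), -0.117 to -0.0501 at ssa04 (45 Mb), 0.347 to 1.16 at ssa09, 0.122 to 0.239 at ssa14 and -0.0402 to -0.0133 at ssa16. The number of CpGs past the threshold was 0 throughout at 3 days. The number with an unadjusted p under 0.05 was 5 in the exact test over all 16 fish and 3 when coverage-weighted. It was 10 with tank as a block, 12 on tank means, 3 without tank T1 and 1 without tank T5. Each is a count of the 94 CpGs, of which 4.7 (5%) would be expected by chance. Leaving out fish 74 and 77 together gave -5.00 points at ssa04 (35 Mb) (exact permutation adjusted p = 0.196). For the times, 1 CpG, 44947115, passed with sex as a covariate and 0 otherwise, and the number with an unadjusted p under 0.05 was 3, or 5 with a minimum of 100 reads. The sex contrast at ssa16 was 0.0496 on the M-value scale and -0.00772 without fish 77. Depth limited ssa03 and ssa15.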
